A study of Mus musculus with 8 samples.

Results

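The 7 genes described here mark marginal zone B cells or belong to the Notch pathway that makes them: the receptor gene Notch2, the pathway genes Dtx1 and Hes1, and the surface protein genes Cd1d1, Cd9, Cd36 and S1pr3. They were chosen by symbol, with earlier results of these data known, and each symbol matched 1 of the 55401 genes counted in every library. RNA was sequenced in 8 mouse libraries, 2 in each of 4 groups. The groups were Jmjd1c B KO germinal center B cells, wild-type (WT) germinal center B cells, Jmjd1c B KO activated B cells and WT activated B cells, all from C57BL/6 spleen. Germinal center cells were sorted by FACS. Activated cells were splenic B cells bound through a biotinylated PanB reagent to streptavidin beads and then activated in culture. Jmjd1c encodes a Jumonji protein of the H3K9 demethylase family. The labels do not give the stimulus, the Cre driver, the deleted exons, the age of the mice or whether replicates are separate mice, so the p-values reflect variation between libraries, part of which may be technical.

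Marginal zone B cells lie at the edge of the splenic follicle, where blood enters the tissue, and respond early to blood-borne antigens. In mice they need Notch2: a ligand on stromal cells, mainly Dll1, leads to cleavage of the receptor, and its intracellular part joins the DNA-binding protein RBPJ and Mastermind-like coactivators to switch on target genes. Germinal center B cells form inside follicles after antigen, where they divide and mutate their antibody genes.

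The libraries held 8777425 to 11414559 counts on genes. Levels are given as CPM, counts scaled by TMM to library size. The sum of 10 germinal center markers was 4630 to 4650 CPM in KO and 6760 to 6890 CPM in WT germinal center cells, against 561 to 596 CPM in KO and 608 CPM in WT activated cells, in the direction of the labels. Jmjd1c itself was lower in KO than in WT in germinal center cells (log2 fold change -0.20, edgeR adjusted p = 1.66e-05) and in activated cells (-0.94, edgeR adjusted p = 1.81e-11). The drop was smaller in germinal center cells. The KO effect there minus that in activated cells was 0.74 (1 fit of all 8 libraries, edgeR adjusted p = 1.39e-14). Counts over the whole gene include any exon that was not deleted, in both cell states, and the cause of the smaller drop was not tested. Mitochondrial transcripts took 9.2% and 9.52% of counts in KO germinal center libraries, 5.51% and 5.27% in WT germinal center libraries and 2.26% to 2.66% in activated libraries. In such bulk samples, fewer cells of a type and less RNA per cell cannot be told apart.

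To show where the RBPJ core motif lies in the members' promoters, the 250 bases before the RefSeq start (GRCm38.p6) are given for the receptor gene, for Cd36 and Cd9, which were higher in KO in both cell states, and for Dtx1, which passed in neither. The windows are chr3:98013288-98013537 (plus strand), chr5:17835897-17836146 (minus), chr6:125494761-125495010 (minus) and chr5:120711670-120711919 (minus), each written 5′ to 3′ on the gene's strand, with TGGGAA in capitals.
Notch2: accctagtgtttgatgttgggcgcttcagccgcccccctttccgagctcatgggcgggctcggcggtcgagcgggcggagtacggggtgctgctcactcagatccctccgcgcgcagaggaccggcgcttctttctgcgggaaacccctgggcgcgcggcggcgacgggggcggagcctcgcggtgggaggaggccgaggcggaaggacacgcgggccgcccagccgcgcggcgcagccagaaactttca
Cd36: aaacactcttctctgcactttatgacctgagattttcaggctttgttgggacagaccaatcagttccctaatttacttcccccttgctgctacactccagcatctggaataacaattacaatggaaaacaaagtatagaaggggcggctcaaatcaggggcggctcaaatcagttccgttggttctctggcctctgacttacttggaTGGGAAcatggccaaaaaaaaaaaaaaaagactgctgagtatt
Cd9: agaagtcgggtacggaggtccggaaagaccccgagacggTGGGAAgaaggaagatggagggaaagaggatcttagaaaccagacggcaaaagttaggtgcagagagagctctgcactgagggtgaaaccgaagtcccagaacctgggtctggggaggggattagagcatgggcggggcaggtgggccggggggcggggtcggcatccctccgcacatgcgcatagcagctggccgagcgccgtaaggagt
Dtx1: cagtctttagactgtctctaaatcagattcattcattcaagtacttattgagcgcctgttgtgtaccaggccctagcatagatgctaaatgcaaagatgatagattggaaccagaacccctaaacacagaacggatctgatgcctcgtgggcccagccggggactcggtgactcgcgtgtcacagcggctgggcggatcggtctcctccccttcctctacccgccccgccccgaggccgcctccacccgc
TGGGAA was searched on both strands, as TGGGAA or TTCCCA. Cd9 held 1 match, 211 bases before its start, which also fits the longer GTGGGAA, and Cd36 held 1 match, 43 bases before its start. Notch2, Dtx1 and S1pr3 held none in this window. The short motif was in 21.6% and the longer one in 5.42% of all 32851 windows of that length. A match describes letters only. The promoter table matched 5 of the 7 genes, without Hes1 and Cd1d1.

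Notch2, the receptor gene (ENSMUSG00000027878.11, chromosome 3, 98013527 to 98150361, plus strand, GRCm38), was much higher in KO than in WT germinal center cells and did not pass between the activated groups. It had 222 and 224 CPM in KO germinal center libraries, against 61.3 and 57.4 CPM in WT germinal center libraries. In activated libraries it had 496 and 511 CPM in KO, against 480 and 493 CPM in WT. Every activated library lay above every germinal center library, and KO germinal center cells lay between the WT germinal center and the activated cells. The KO to WT log2 fold change was 1.92 in germinal center cells (SE 0.052, edgeR adjusted p = 3.41e-283), a 3.77-fold difference. In activated cells it was 0.05 (95% interval -0.0572 to 0.159, edgeR adjusted p = 0.682). Gm42820, which overlaps 5.02% of its exon length, had at most 16 counts in a library, against 584 or more for Notch2.

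Dtx1 and Hes1 stand downstream of the receptor. Dtx1 (ENSMUSG00000029603.15, chromosome 5, 120680202 to 120711927, minus strand) encodes a Deltex ubiquitin ligase and is often read as a Notch2 target in marginal zone B cells. It had 181 and 171 CPM in KO, against 181 and 174 CPM in WT germinal center libraries, and 166 and 153 CPM in KO, against 163 and 160 CPM in WT activated libraries. KO and WT libraries overlapped in both cell states. The log2 fold change was -0.01 in germinal center cells (95% interval -0.096 to 0.0754, edgeR adjusted p = 0.869) and -0.02 in activated cells (-0.137 to 0.103, edgeR adjusted p = 0.925).

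Hes1 (ENSMUSG00000022528.8, chromosome 16, 30064384 to 30067796, plus strand) encodes a repressor that is a classical Notch target. It had 14.1 and 12.9 CPM in KO germinal center libraries, against 7.76 and 7.84 CPM in WT germinal center libraries. In activated libraries it had 7.68 and 6.76 CPM in KO, against 7.74 and 7.14 CPM in WT. The 2 KO germinal center libraries stood above the other 6, which lay together. Its log2 fold change was 0.79 in germinal center cells (SE 0.168, edgeR adjusted p = 1.03e-05) and -0.04 in activated cells (95% interval -0.419 to 0.339, edgeR adjusted p = 0.948). These values rest on 67 to 116 counts per library.

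**Figure D1:**
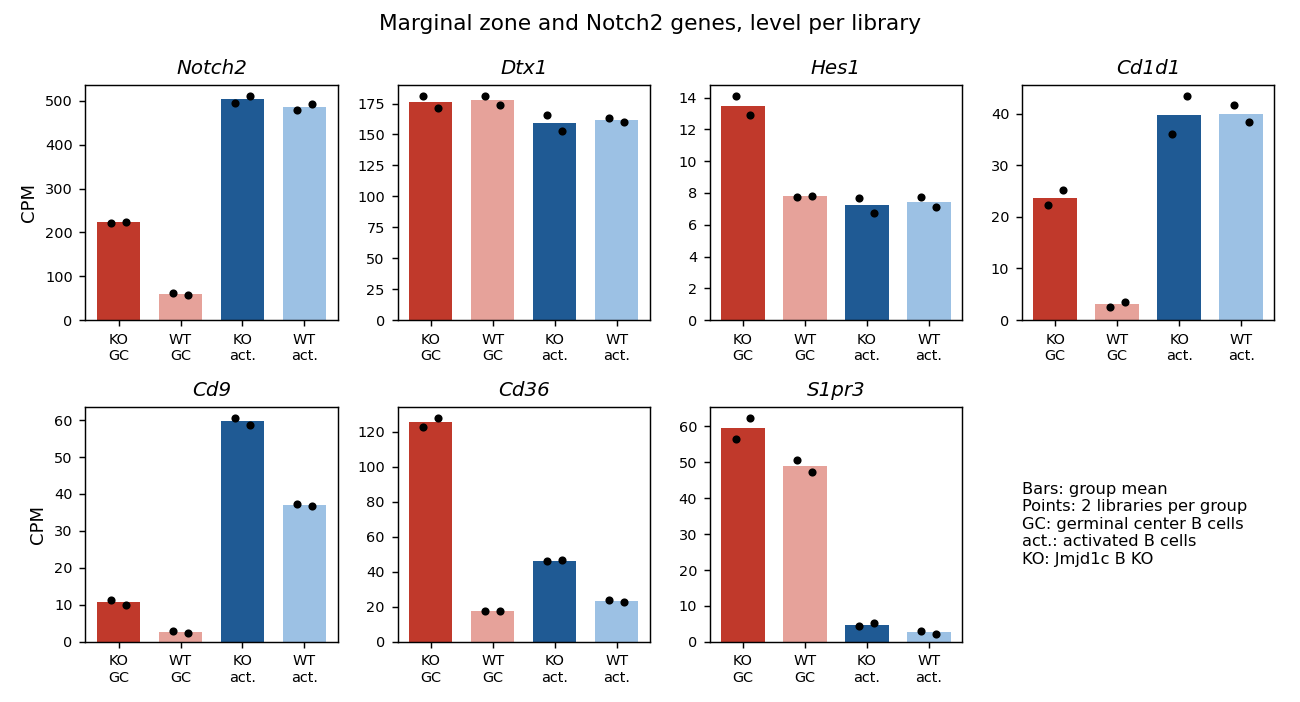
Level of each of the 7 genes in each library, in TMM-scaled CPM on linear axes, with KO left of WT in each cell state; points are libraries and bars are group means (n = 2). Notch2, Cd1d1, Cd9 and Cd36 stand well apart between KO and WT germinal center cells (Cd36 126 against 17.8 CPM), while Dtx1 lies between 153 and 181 CPM in every library.

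The 4 surface genes were all higher in KO germinal center cells, where 25.1% of all genes tested passed as higher. The change of S1pr3 was small (log2 fold change 0.29), and 46.6% of genes tested had a larger one in either direction. Cd1d1 (ENSMUSG00000028076.12, chromosome 3, 86995834 to 86999441, minus strand) encodes CD1d, which presents lipids to NKT cells and is abundant on marginal zone B cells. It had 22.3 and 25.2 CPM in KO germinal center libraries, against 2.62 and 3.47 CPM in WT germinal center libraries. In activated libraries it had 36.1 and 43.4 CPM in KO, against 41.7 and 38.3 CPM in WT, and these ranges overlapped. The log2 fold change was 2.95 in germinal center cells (SE 0.181, edgeR adjusted p = 4.38e-58), on 25 and 38 counts in WT. In activated cells it was -0.0036 (95% interval -0.191 to 0.184, edgeR adjusted p = 0.993). Cd1d1 shares 19.1% of its 50-base stretches with Cd1d2, which had at most 8 counts in a library.

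Cd9 (ENSMUSG00000030342.8, chromosome 6, 125460266 to 125494791, minus strand) encodes a tetraspanin found on marginal zone and B1 cells, and also on platelets and macrophages. It had 11.4 and 9.88 CPM in KO germinal center libraries, against 3.04 and 2.46 CPM in WT germinal center libraries. In activated libraries it had 60.6 and 58.7 CPM in KO, against 37.3 and 36.8 CPM in WT. KO libraries were above WT libraries in both cell states. The log2 fold change was 1.96 in germinal center cells (SE 0.229, edgeR adjusted p = 1.03e-16) and 0.69 in activated cells (SE 0.0765, edgeR adjusted p = 5.47e-07). Cd9 shares 10.7% of its exon length with the opposite-strand gene Gm26728 and 14.4% of its 50-base stretches with other genes, and the strand setting is not given, so its counts are uncertain.

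Cd36 (ENSMUSG00000002944.15, chromosome 5, 17781690 to 17888801, minus strand) encodes a scavenger and fatty acid receptor of marginal zone B cells that is also made by macrophages and platelets. Its level was highest in KO germinal center libraries, with 123 and 128 CPM, against 17.8 and 17.7 CPM in WT germinal center libraries. In activated libraries it had 46 and 46.9 CPM in KO, against 24 and 22.7 CPM in WT. The groups did not overlap in either state. The log2 fold change was 2.83 in germinal center cells (SE 0.0779, edgeR adjusted p = 2.32e-278) and 0.997 in activated cells (SE 0.0884, edgeR adjusted p = 1.11e-08), or 7.09-fold and 2-fold.

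S1pr3 (ENSMUSG00000067586.4, chromosome 13, 51408639 to 51422797, plus strand) encodes a receptor for sphingosine-1-phosphate that is abundant on marginal zone B cells. It had 56.5 and 62.4 CPM in KO germinal center libraries, against 50.7 and 47.3 CPM in WT germinal center libraries. In activated libraries it had 4.3 and 5.25 CPM in KO, against 3.1 and 2.18 CPM in WT. Germinal center libraries of either genotype held far more S1pr3 than activated ones. The KO to WT log2 fold change was 0.29 in germinal center cells (SE 0.0748, edgeR adjusted p = 0.000439), and without the second KO germinal center library it was 0.21 and no longer passed (edgeR adjusted p = 0.0517). In activated cells it was 0.86 (95% interval 0.302 to 1.42, edgeR adjusted p = 0.059), on 22 to 52 counts per library, and it passed without the first WT activated library (1.13, edgeR adjusted p = 0.0421).

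**Figure D2:**
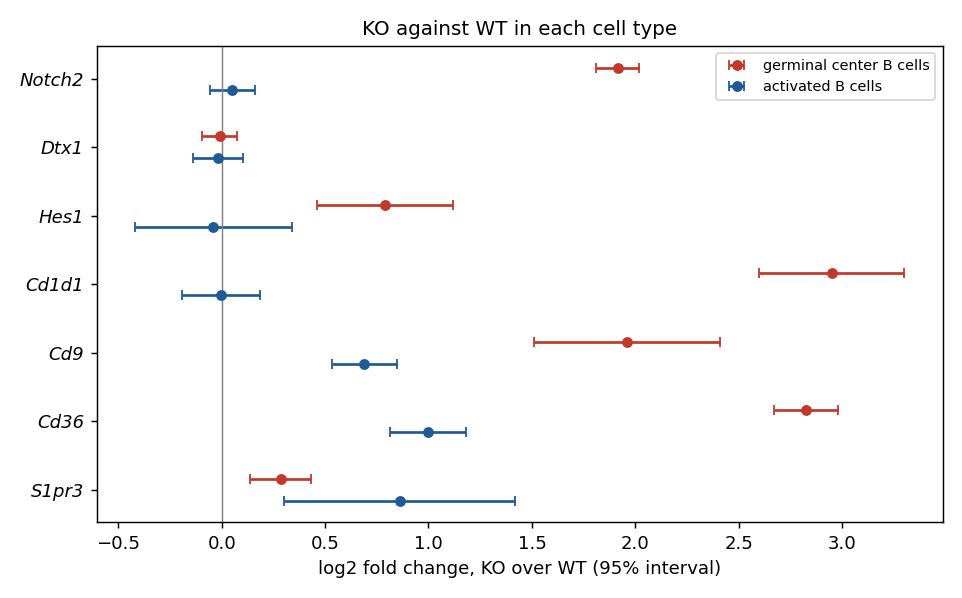
Log2 fold change of KO over WT with its 95% interval for each gene in germinal center and in activated cells. In germinal center cells the interval lies above 0 for every gene but Dtx1; in activated cells only those of Cd9, Cd36 and S1pr3 do, and S1pr3 misses the adjusted threshold.

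Counted together, 6 of the 7 genes passed as higher and 0 as lower in KO germinal center cells, by edgeR at an adjusted p under 0.05. At an unadjusted p under 0.05 and with DESeq2 the counts were also 6 and 0. Of all 13350 genes tested, 50.2% passed, 25.1% as higher and 25.1% as lower, and the KO and WT libraries of 72.8% of genes did not overlap. The median log2 fold change of the 7 genes was 1.92, against -0.00443 over all genes tested. Because the 7 genes were chosen with earlier results of these data known, their counts and medians are description only. In activated cells 2 of 7 were higher and 0 lower, with 3 and 0 at an unadjusted p under 0.05 and 2 and 0 with DESeq2. There 6.27% of 14110 genes passed, 4.85% as higher and 1.42% as lower, 47.8% did not overlap, and the median of the 7 genes was 0.05, against 0.00062 over all genes.

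The KO effect differed between the cell states for 5 of the 7 genes, tested as germinal center minus activated in 1 fit of all 8 libraries, where 31.2% of 14992 genes passed, 17.5% as higher and 13.8% as lower. The difference was 2.95 for Cd1d1 (SE 0.199, edgeR adjusted p = 3.22e-24), 1.86 for Notch2 (SE 0.0746, edgeR adjusted p = 1.78e-40) and 1.83 for Cd36 (SE 0.129, edgeR adjusted p = 3.86e-23). It was 1.27 for Cd9 (SE 0.227, edgeR adjusted p = 2.58e-06) and 0.83 for Hes1 (SE 0.251, edgeR adjusted p = 0.00629), and Hes1 did not pass with DESeq2 (adjusted p = 0.148). For Dtx1 it was 0.0052 (95% interval -0.141 to 0.152) and for S1pr3 -0.58 (95% interval -1.1 to -0.0566, edgeR adjusted p = 0.0853).

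Germinal center cells were next compared with activated cells within each genotype. Notch2, Cd1d1 and Cd9 were lower in germinal center cells and S1pr3 was higher, in both genotypes. In KO cells the germinal center to activated log2 fold change was -1.17 for Notch2 (SE 0.0464), -0.74 for Cd1d1 (SE 0.107), -2.48 for Cd9 (SE 0.108) and 3.64 for S1pr3 (SE 0.13), all with edgeR adjusted p of 4.54e-07 or less. In WT cells it was -3.05 for Notch2 (SE 0.0559), -3.71 for Cd1d1 (SE 0.152), -3.76 for Cd9 (SE 0.159) and 4.20 for S1pr3 (SE 0.149), with edgeR adjusted p from 4.67e-116 to 1.44e-57. The gap between the KO and WT values of a gene is the difference of KO effects tested above.

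Cd36 went opposite ways in the genotypes. It was higher in germinal center than in activated cells in KO (log2 fold change 1.44, SE 0.0643, edgeR adjusted p = 3.77e-18) and lower in WT (-0.40, SE 0.116, edgeR adjusted p = 0.000941, 0.0951 with DESeq2). Hes1 was higher in germinal center cells in KO (0.91, SE 0.17, edgeR adjusted p = 2.28e-05), and in WT the value was 0.06 (95% interval -0.31 to 0.429). Dtx1 passed in the main scaling with 0.15 in KO (edgeR adjusted p = 0.0111) and 0.13 in WT (edgeR adjusted p = 0.0164), but its direction flipped to -0.02 in KO with library totals alone and to -0.02 in WT with upper-quartile factors. In KO 4 of the 7 genes were higher and 3 lower, where 78.7% of 14307 genes passed, 39.2% as higher and 39.5% as lower. In WT 2 were higher and 4 lower, where 82.2% of 14426 genes passed, 40.3% as higher and 41.8% as lower.

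**Figure D3:**
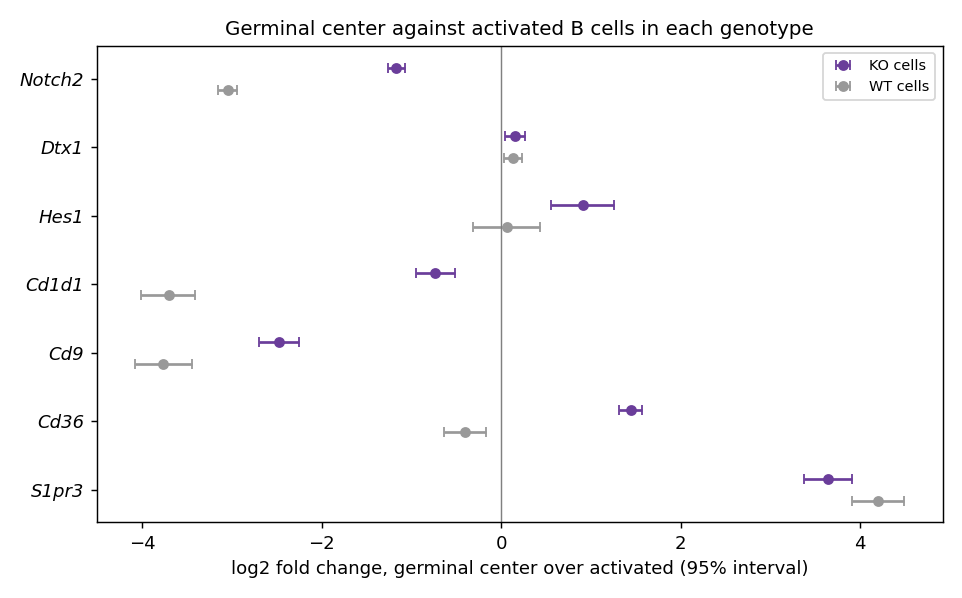
Log2 fold change of germinal center over activated cells with its 95% interval, for KO and WT. Notch2, Cd1d1 and Cd9 lie below 0 and S1pr3 above 0 in both genotypes, and Cd36 lies above 0 in KO (1.44) and below 0 in WT (-0.40).

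Levels were compared between genes per exon length, as CPM per kilobase of exon (RPKM). In KO germinal center cells Cd36 (35 RPKM) and Dtx1 (33.4 RPKM) led and overlapped, followed by Notch2 (20.7), S1pr3 (13.3), Cd1d1 (9.25), Hes1 (6.62) and Cd9 (5.22 RPKM). In WT germinal center cells Dtx1 led alone at 33.8 RPKM, ahead of S1pr3 (11), Notch2 (5.5), Cd36 (4.95) and Hes1 (3.83 RPKM), and Cd9 (1.35) and Cd1d1 (1.18 RPKM) overlapped at the foot. In both activated groups Notch2 led, at 46.7 RPKM in KO and 45.1 RPKM in WT, and S1pr3 came last, at 1.07 RPKM in KO and 0.591 RPKM in WT. In KO activated cells Dtx1 (30.2) and Cd9 (29.2 RPKM) came next and overlapped. On the means Cd36 stood above Notch2 per length in KO germinal center cells only, and Dtx1 kept 30.2 to 33.8 RPKM in all 4 groups.

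**Figure D4:**
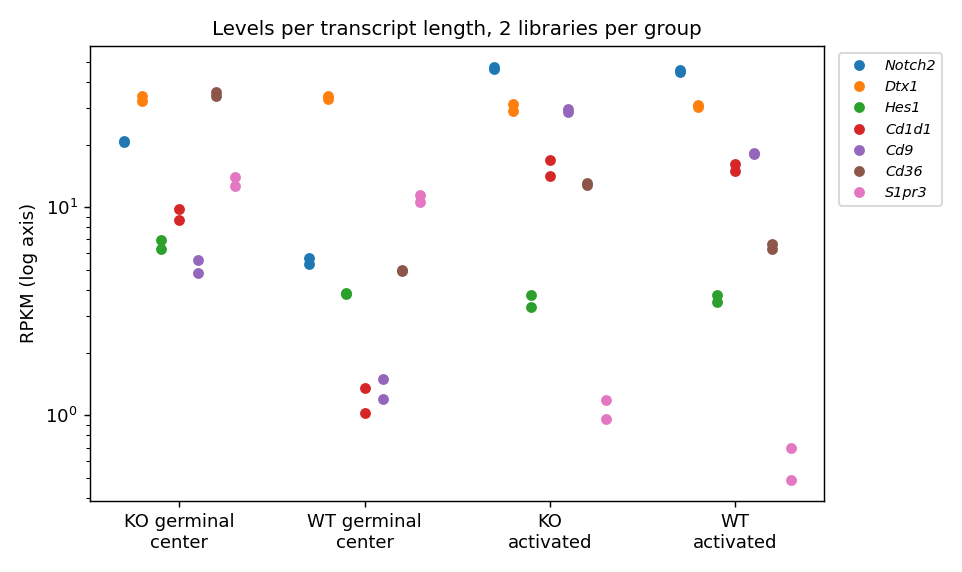
Level per exon length (RPKM, log axis) of the 7 genes in the 4 groups; each point is a library and each color a gene. Cd36 is at 35 RPKM in KO and 4.95 RPKM in WT germinal center cells, and S1pr3 is last in both activated groups.

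Genes of the wider Notch pathway passed about as often as all genes. Of 55 tested genes that are no members, from a list chosen with earlier results known, 17 were higher, 11 lower and 27 did not pass in KO against WT germinal center cells, with a median log2 fold change of 0.0444, where 25.1% of all genes were higher and 25.1% lower. Among receptors and ligands Notch1, the other main Notch receptor gene of lymphocytes, was higher (1.10, SE 0.138, edgeR adjusted p = 1.7e-14). Among genes that modify or cut the receptors, Lfng (1.62) and Mfng (0.48), the Fringe glycosyltransferases, and Mib2 (0.73), a ligand ubiquitin ligase, were higher. Adam10, the protease that makes the first activating cut, was lower (-0.27, SE 0.0555, edgeR adjusted p = 4.87e-06). Of 20 nuclear effectors, 5 were higher, including Maml2, a Mastermind-like coactivator (0.93), and Tle3, a corepressor (0.96), and 8 were lower, including Ctbp1, another corepressor (-0.30). Of 12 tested genes that are Notch targets or belong to the Deltex family, 5 were higher. They were Hes1, Myc (0.80), Cr2 (0.42) and the Deltex family genes Dtx4 (1.33) and Dtx3l (0.33). One was lower, Hes6, a Hes family gene named after its value was seen (-0.18, edgeR adjusted p = 0.0159), and 6 did not pass, Dtx1 among them.

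In activated cells, where 4.85% of all genes were higher and 1.42% lower, 1 of the 57 tested non-member genes of the pathway was higher (Tle3, 0.20, edgeR adjusted p = 0.045) and 1 lower (Cr2, which encodes complement receptor 2, -0.19, edgeR adjusted p = 0.0371), and DESeq2 called 0 either way. At an unadjusted p under 0.05, 9 were higher and 4 lower.

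Genes whose levels set marginal zone and follicular B cells apart were mostly higher. Of 61 tested non-member marginal zone and follicular genes, 37 were higher, 9 lower and 15 did not pass in KO germinal center cells, against 25.1% of all genes higher and 25.1% lower, with a median log2 fold change of 0.42. Among the 19 tested marginal zone markers, members included, 16 were higher and 1 lower. Fcrl5, an Fc receptor-like protein gene (3.54), and Cd38, an ectoenzyme gene (1.89), had log2 fold changes with SE of 0.144 and 0.0807, and Cnr2, the cannabinoid receptor gene, reached 1.15. Genes that are usually higher in follicular cells rose as well, 8 of 9, among them Cd55 (2.09), Klf2 (2.23) and Fcer2a, which encodes CD23 (1.22). Of 16 receptor and adhesion genes that place B cells, 11 were higher, S1pr1, which guides exit into blood (2.17), and Ccr7, which guides cells to T zones (2.99), among them. The 3 lower ones, named after their values were seen, were S1pr2, which confines cells to the germinal center (-0.45), Cxcr4, which guides cells to its dark zone (-0.55), and the integrin gene Itgb1 (-0.63), and 2 did not pass. All 10 germinal center markers were lower.

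In activated cells 8 of 20 marginal zone markers were higher in KO and 1 lower, where 4.85% of all genes were higher and 1.42% lower, with a median log2 fold change of 0.26. Sema7a, a semaphorin gene (0.96, edgeR adjusted p = 6.74e-06), and Fcrl5 (0.77, edgeR adjusted p = 2.04e-05) were among them. One of 9 follicular genes was higher, Fcer2a (0.20), and 1 was lower, Satb1, a chromatin organizer gene (-0.30). Rbpj, the DNA-binding partner of Notch, was lower in germinal center than in activated cells in KO (-1.88, SE 0.0831, edgeR adjusted p = 3.01e-18) and in WT (-1.56, SE 0.081, edgeR adjusted p = 8.12e-46). Lfng (-1.90 in KO and -3.52 in WT), Maml3 (-2.83 and -5.46) and Dtx4 (-2.59 and -3.87) were lower there as well, while Jag2, a ligand gene, was higher (2.48 in KO and 3.06 in WT).

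**Figure D5:**
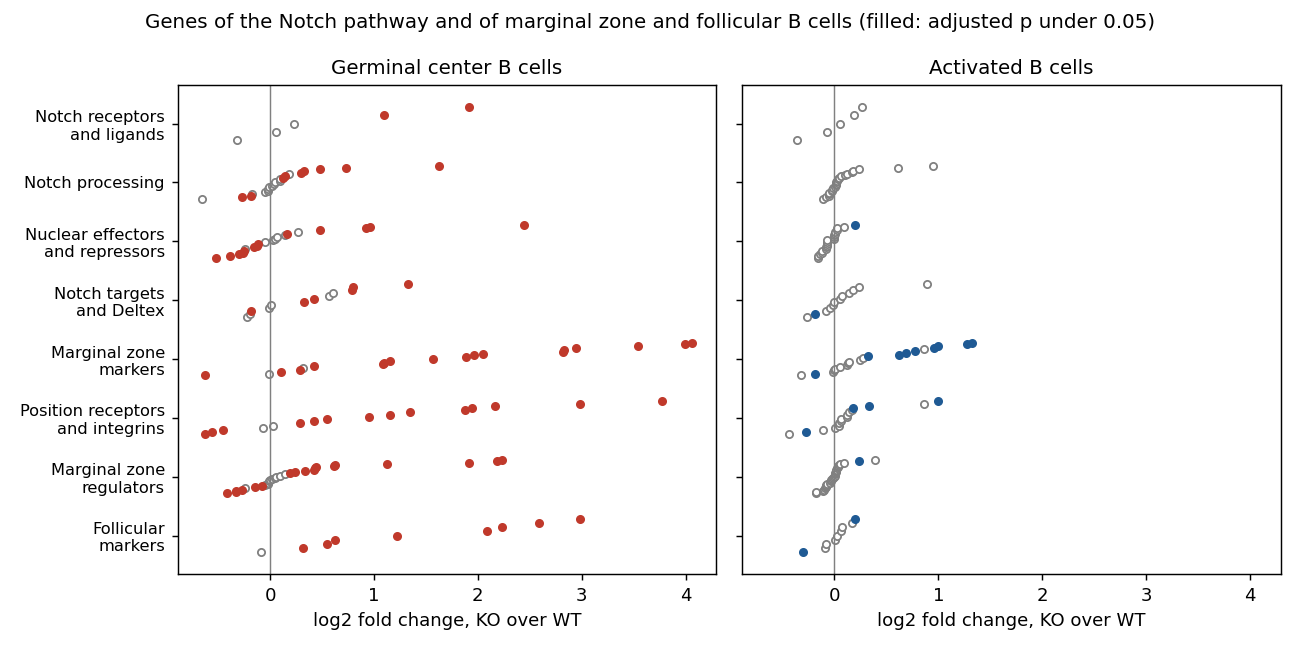
Log2 fold change of KO over WT of every tested gene of each Notch and marginal zone list, in germinal center (left) and activated cells (right); filled points passed at an adjusted p under 0.05. In germinal center cells the marginal zone marker list has a median of 1.57 and the Notch processing list one of 0.0444.

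Markers of other cell types moved beside some members, and their part in the results was not tested. Summed macrophage markers (18 genes) were 140 to 156 CPM in KO and 48.4 to 49.8 CPM in WT germinal center cells, and 1530 to 1660 CPM in KO and 972 to 1020 CPM in WT activated cells; 11 of 12 tested were higher in KO germinal center cells and 8 of 13 in KO activated cells. Cd36 had 126 CPM in KO and 17.8 CPM in WT germinal center cells, and 46.5 CPM in KO and 23.3 CPM in WT activated cells. The largest part of the activated macrophage sums was Lyz2, at 827 CPM in KO and 435 CPM in WT. In germinal center cells the largest part was Mpeg1, at 77.1 CPM in KO and 16.4 CPM in WT. Lyz2 had 3.53 CPM in KO and 0.301 CPM in WT germinal center cells. In KO cells 3 of 16 tested macrophage markers were higher in germinal center than in activated cells and 11 lower. Of all genes there, 39.2% were higher and 39.5% lower. The 3 were C1qa (2.05 against 0.151 CPM), C1qb (2.53 against 1.12 CPM) and C1qc (3 against 0.458 CPM). Cd9 was highest in the activated groups, as were Notch2, Cd1d1 and the macrophage sum. Neutrophil markers were 1540 to 1890 CPM in KO and 409 to 476 CPM in WT activated cells, with 9 of 9 higher in KO, and at most 1.43 CPM in any germinal center library, where 5 of 9 were at 0 in KO and 8 in WT. Of 9 platelet markers, a cell type that also makes CD9 and CD36, the summed level was 81 to 81.2 CPM in KO and 103 to 104 CPM in WT germinal center cells, and 109 to 113 CPM in KO and 98.3 to 101 CPM in WT activated cells. Nearly all of it was Itgb3 (79.4 CPM in KO and 102 CPM in WT germinal center cells), an integrin gene that other cells express too. Pf4 and Ppbp, which define platelets, were at 0 in both germinal center groups and at 0.914 and 1.22 CPM in KO, against 0.512 and 0.304 CPM in WT activated cells. B1 and plasma cells also express Cd9 or Cd36. Their 9 markers summed to 925 to 928 CPM in KO and 724 to 746 CPM in WT germinal center cells. In activated cells the sum was 751 to 758 CPM in KO and 627 to 652 CPM in WT. Of the 9, 7 were higher and 0 lower in KO germinal center cells (25.1% and 25.1% of all genes). In KO activated cells 4 were higher and 1 lower (4.85% and 1.42% of all genes). Erythroid markers were 62.6 to 76.5 CPM in KO and 7.55 to 9.76 CPM in WT germinal center cells, and 937 to 1130 CPM in KO and 635 to 641 CPM in WT activated cells. Interferon-induced genes were 247 to 253 CPM in KO and 81.9 to 95.5 CPM in WT germinal center cells, and 176 to 180 CPM in KO and 114 to 123 CPM in WT activated cells.

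For each member the 3 genes with the most similar course over the 8 libraries were found among 9554 genes, as the smallest root mean square difference of centred log2 CPM. Notch2 was nearest to Cmah (0.0764), Ampd3 (0.0862) and Kbtbd11 (0.106). Cd1d1 was nearest to Ifi214 (0.153), Irgm1 (0.157) and Slfn5os (0.158), and Cd9 to Tcf7 (0.176), Smpdl3a (0.184) and Mpeg1 (0.217). Cd36 stood more alone, with Ifi27l2a at 0.196, Jaml at 0.417 and Ifi27 at 0.421. S1pr3 was nearest to Sema7a (0.138), Cacna1s (0.143) and Iqgap3 (0.202), and Hes1 to Mapk11 (0.0729), Smarcd3 (0.076) and Stat2 (0.0868). For Dtx1, which hardly varied, they were Mrps35 (0.00777), Exosc10 (0.0268) and Zfp263 (0.0414). All 3 lie below the counting error of the named gene's own counts (0.0932 log2 per library for Mrps35, at 240 counts), and so do Ampd3 (0.126), Smarcd3 (0.0835) and Slfn5os (0.177). The order among the nearest genes of Dtx1, Notch2, Hes1 and Cd1d1 is therefore not resolved at this depth. The same holds for Sema7a and Cacna1s beside S1pr3, Tcf7 and Smpdl3a beside Cd9, and Jaml and Ifi27 beside Cd36. Their distances lie closer together than the counting error of Cacna1s (0.129), Tcf7 (0.166) and Jaml (0.195). The smallest of 9554 distances is also small by selection. Among the members, Dtx1 and Hes1 (0.327) and Notch2 and Cd1d1 (0.378) were the closest pairs.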

How the data were processed

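The deposited files hold raw counts per gene, made by the authors. The submitters' processing notes name Trimmomatic, DESeq2 and mm10. The aligner, counter, strand setting and versions were not given in the sources used here. Sample titles gave the groups and replicate numbers. Entries that name no gene, 56.7% to 59.5% of all entries, stayed out of library sizes and tests. Libraries held 8777425 to 11414559 counts on genes, so values on few counts carry more counting error. In WT germinal center libraries Cd1d1 had 25 and 38 counts and Cd9 had 29 and 27. S1pr3 had 22 to 52 counts in activated libraries, and Hes1 had 67 to 116 counts over all libraries.

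Counts were tested with edgeR 4.0.16 in R 4.3.3 (TMM, filterByExpr, quasi-likelihood F test, Benjamini-Hochberg over all genes tested, adjusted p under 0.05) on the 4 libraries of each comparison, and in 1 fit of all 8 for the difference of KO effects. All 7 genes passed the filter in each. Printed CPM and RPKM use TMM over 8 libraries and GENCODE M21 (GRCm38) exon lengths. Intervals are 95%. Alternatives were DESeq2 1.42.0, other scalings and filters, a replicate block, 1 fit of 8 libraries and leaving out each library. The procedure was tested on simulated data. Of simulated 1.5-fold changes it recovered 76% for KO against WT in germinal center cells, 63.1% in activated cells and 38.8% for the difference. Of 2-fold changes it recovered 74%, 81.4% and 78.4% in the same order. False calls made up 3.85%, 2.7% and 5.6% of its calls, so smaller changes can be missed where a gene did not pass. The genes and lists were chosen with earlier results of these data known. Named non-members are up to 4 per list and comparison with the lowest p among those that passed, of which a part is printed, and the 3 nearest genes per member by centred log2 CPM with prior count 2 and a mean count of at least 50. No replicate pair agreed within sampling noise (chi-square over degrees of freedom 1.42 to 2.56).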

Additional observations from a re-analysis of the deposited data

Results flagged for a closer look

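The KO effect on 5 genes differed between germinal center and activated B cells by the test of the difference itself, in 1 edgeR fit of all 8 libraries. On the log2 scale the effect in germinal center cells exceeded that in activated cells by 1.864 for Notch2, 2.953 for Cd1d1, 1.828 for Cd36, 1.27 for Cd9 and 0.8303 for Hes1. Groups of 2 libraries are too small for a search for single outlying libraries.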

How the results depend on the processing

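The calls of Notch2, Hes1, Cd1d1, Cd9 and Cd36 as higher in KO germinal center cells, and of Cd9 and Cd36 in activated cells, passed in all 13 alternatives. In activated cells DESeq2 called 255 genes higher and 56 lower, no filter 397 and 68, while the replicate block called 435 lower and the fit of 8 libraries 408; leaving out libraries gave 108 to 275 lower. Notch list genes there were 0 to 3 higher and 0 to 2 lower over the alternatives (0 to 2 and 0 without single libraries), and marginal zone and follicular genes 8 higher and 1 lower with DESeq2, 8 higher with no filter, and 5 lower with library totals, the block or the fit of 8. S1pr3 in activated cells passed with the replicate block (0.8604) and the fit of 8 (0.8582), and ran from 0.625 to 1.127 without single libraries; in germinal center cells it ran from 0.2127 to 0.3591. Replicate numbers did not pair the libraries (correlations of -0.0189 to 0.0148), and the block changed no other member call.

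Near-zero values changed sign. Without single libraries Dtx1 ran from -0.04768 to 0.02842 (KO to WT, germinal center), -0.08183 to 0.04327 (activated) and -0.05608 to 0.06704 (difference), and in activated cells Hes1 ran from -0.1358 to 0.04856 and Cd1d1 from -0.1428 to 0.1198. The Dtx1 difference was -0.02042 with DESeq2, -0.01613 with RLE factors, -0.0312 with library totals and -0.001598 without mitochondrial and immunoglobulin genes. Between germinal center and activated KO cells Dtx1 was 0.1434 (DESeq2), 0.0006265 (upper quartile), -0.02499 (totals), 0.154 (no filter) and 0.07761 to 0.2093. In WT cells Dtx1 was 0.1319 (DESeq2), -0.01734 (upper quartile), 0.006059 (totals) and 0.1014 to 0.1841 without single libraries, so 1 to 2 members were called higher; Cd36 was -0.4001 with DESeq2; Hes1 was -0.08596 (upper quartile), -0.06256 (totals) and -0.01014 to 0.1061. Between cell states the median of all genes was -0.3011 in KO and -0.3907 in WT with DESeq2, -0.168 and -0.1795 with upper-quartile factors, -0.1939 and -0.1561 with totals, and -0.2899 and -0.3796 with no filter. The medians with DESeq2 and with no filter also take in low genes that the main filter left out. For the difference of KO effects DESeq2 called 1435 and 1210 genes and 11 and 2 Notch list genes, and gave Hes1 0.8071; leaving out libraries gave 3 to 8 Notch list genes lower, 0 to 1 member lower, and S1pr3 from -0.8452 to -0.3189. Of the other named genes, 49 values no longer passed and 0 changed sign. The cause of these changes was not tested.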
